A study of Panonychus citri with 16 samples.

Results

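The 200 most abundant contigs of the adult female citrus red mite, Panonychus citri, were described in 4 Iranian populations. Contigs are assembled transcript sequences, and the deposited table held 17682 of them. Abundance was taken as TPM, a read abundance divided by contig length and scaled to the same sum in every library. The 200 members were the contigs with the highest median TPM over 15 libraries, all except Rasht replicate 2, which stood apart. The level therefore chose the members, and it is given below as a description without a test. Differences between populations were not part of the rule and were tested.

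Whole adult females were pooled, 100 to 130 mites in a pool, and polyA RNA of each pool gave 1 library. All 4 populations were kept on lemon leaves under the same conditions, and each had 4 libraries that the labels call biological replicates. Rasht was the population susceptible to fenpyroximate, an acaricide of the METI-I class, whose target is complex I in the mitochondria. Resistance was moderate in Lahijan and high in both Ramsar and Sari. The labels record no acaricide exposure of the sequenced mites, so the comparisons are between populations and not between exposed and unexposed mites. Each resistance level stood for a single population or a pair of them, so that the level and the origin of a population cannot be told apart.

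In egg-laying arthropods, a small set of genes usually supplies much of the messenger RNA of an adult female. Transcripts for yolk proteins made for the eggs, for ribosomal proteins, for the cytoskeleton and for energy metabolism are commonly among them. In spider mites the yolk precursor is vitellogenin, which is laid down in eggs that are large relative to the body. The deposited identifiers consist of a population name and a number and are not paired with gene names. Of the 200 members, 0 matched the RefSeq gene table used here, and of all 17682 contigs 0 matched as well. Members are therefore named by identifier, and neither their functions nor markers of sex, stage or tissue were analysed here. In whole animals, fewer cells of a type and less RNA per cell cannot be told apart.

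The threshold fell among closely spaced values. The last members were Rasht_contig_1834, with a median of 780.8 TPM over the 15 libraries, and Rasht_contig_3717, with 778 TPM. The next contigs below were Rasht_contig_246, with 771 TPM, and Sari_contig_270, with 762 TPM. At the top of the list, Ramsar_contig_97 had a median of 45338 TPM. Taking the median over all 16 libraries kept 198 of the members and taking the mean over the 15 libraries kept 193.

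The libraries held 9154459 to 16595528 estimated counts, and the median member had between 8931 and 20421 of them in a library. The lowest count of any member was 168 in Rasht replicate 2 and 364 in the other libraries. Counting error was therefore small beside the spread between pools.

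The members, which are 200 of 17682 contigs, held between 47.1% and 57.6% of all TPM in the 15 libraries used by the rule. Their share was 57.6, 56.1, 54.5 and 53.1% in Lahijan replicates 1 to 4, and 52.9, 53.0 and 54.1% in Rasht replicates 1, 3 and 4. In Ramsar replicates 1 to 4 it was 48.2, 48.6, 50.3 and 47.1%, and in Sari 48.4, 48.4, 51.03 and 49.7%. The 7 libraries of Rasht and Lahijan all lay above the 8 libraries of Ramsar and Sari. Rasht replicate 2 was the highest of the 16 libraries, at 61.3%.

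The mean share was 55.3% ± 1.93 in Lahijan, 48.6% ± 1.31 in Ramsar and 49.4% ± 1.27 in Sari (SD, n = 4 each). For Rasht it was 55.3% ± 4.02 with all libraries (SD, n = 4) and 53.4% ± 0.657 without replicate 2 (SD, n = 3). Because the TPM of a library has a fixed sum, a higher share of the members is a lower share of all other contigs. As a share of estimated counts, which are not divided by length, the means were lower, at 38.6% in Lahijan, 32.7% in Ramsar, 35.4% in Sari and 37.9% in Rasht without replicate 2. With Rasht taken without replicate 2, the order of the means was the same on both scales, Lahijan being the highest and Ramsar the lowest. On the count scale, however, the libraries of Sari and Lahijan overlapped. Sari replicates 3 and 4 had 36.8 and 36.6%, above the 36.5% of Lahijan replicate 4.

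Most of the difference in share lay in the upper part of the list. Over the 15 libraries the single most abundant member held 2.60 to 8.97% of TPM, and the first 10 members together held 11.8 to 19.4%. Ranks 11 to 50 held a mean of 19.2% in Lahijan, 18.3% in Rasht without replicate 2, 16.8% in Sari and 15.01% in Ramsar. Ranks 51 to 200 held a much closer 20.1, 21.1, 20.5 and 19.7% in the same order of populations. The number of contigs needed to reach 50% of TPM was 112 to 157 in Lahijan, 148 to 157 in Rasht without replicate 2, 189 to 223 in Ramsar and 167 to 214 in Sari. Fewer contigs thus carried 50% of the abundance in every Lahijan and Rasht library than in any Ramsar or Sari library, and Rasht replicate 2 needed the fewest, at 88.

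**Figure D1:**
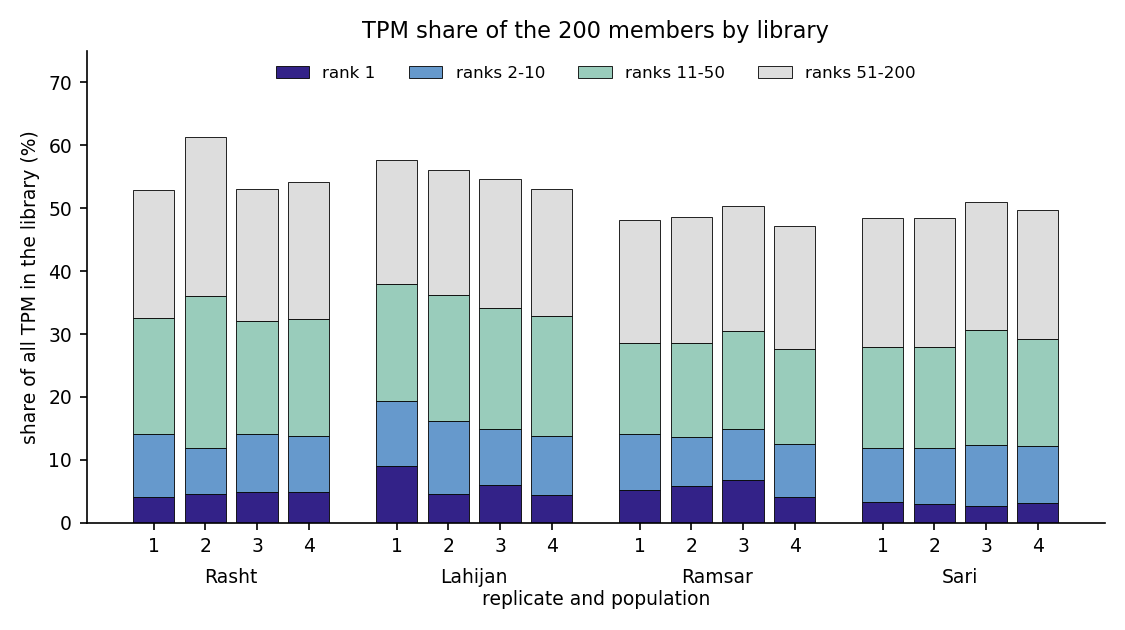
Share of all TPM (%) held by the 200 members in each of the 16 libraries, stacked by rank of the member (1, 2 to 10, 11 to 50 and 51 to 200). The Rasht and Lahijan bars reach 52.9% or more and the Ramsar and Sari bars 51.03% or less, and Rasht replicate 2 reaches 61.3%.

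Ramsar_contig_97 was the most abundant contig in all 16 libraries. Its TPM was 40549, 45499, 48850.4 and 49532 in Rasht replicates 1 to 4 and 89695, 45338, 60825 and 43686 in Lahijan. It was 52174, 58009.8, 67958 and 40406 in Ramsar and 33255, 29534, 25982 and 31976 in Sari. All 4 Sari libraries lay below the other 12, and the Lahijan libraries differed among themselves by more than those of any other population. The means were 59886 ± 21319.5 in Lahijan, 54637 ± 11509.6 in Ramsar, 46108 ± 4104 in Rasht and 30187 ± 3200.3 in Sari (TPM, SD, n = 4). In Lahijan replicate 1 this contig alone held 8.97% of all TPM.

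The second most abundant member, Sari_contig_65, had 19328, 14222, 13464 and 12836 TPM in Rasht and 25128, 30849, 18376 and 18568 in Lahijan. In Ramsar it had 15732, 11127, 14574 and 16346 TPM and in Sari 15355, 15004, 19727 and 17863. Every Lahijan library was above every Ramsar library, while the libraries of the other pairs of populations overlapped. Sari_contig_43 had 13549, 16739, 14984 and 13196 TPM in Rasht, 12399, 15659, 12197 and 12632 in Lahijan, 9162, 7004, 6957 and 7245 in Ramsar and 10567, 9545, 11657 and 11523 in Sari. The 4 Ramsar libraries lay below all 12 others, and Sari lay between Ramsar and the other populations.

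Rasht_contig_31 had 12591, 18520.3, 13016 and 12062 TPM in Rasht, 8125, 13009, 9697 and 9457 in Lahijan, 9784, 10288, 11596 and 9918 in Ramsar and 12595, 12963, 8274 and 12322 in Sari. Rasht replicate 2 was the highest of all libraries. Every Rasht library was above every Ramsar library, and the Rasht libraries other than replicate 2 overlapped those of Lahijan and Sari. Lahi_contig_21 had 7976, 5792, 6835 and 5942 TPM in Rasht, against 10839, 12212, 8698 and 9345 in Lahijan, 9184, 9956, 10972 and 11393 in Ramsar and 10473, 11344, 12129 and 11316 in Sari. All Rasht libraries were below all others for this contig. The same held for Rasht_contig_380, with 5158, 3999, 5012 and 3718 TPM in Rasht, 7591, 8119, 5549 and 5795 in Lahijan, 7594, 7883, 8910.4 and 9277 in Ramsar and 7992, 8264, 8987 and 8819 in Sari.

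Rasht_contig_902 showed the reverse order when Rasht replicate 2 was set aside. Its TPM was 9631, 2585, 10165 and 10754 in Rasht, 8589.6, 9617, 9411 and 9593 in Lahijan, 9014, 9040.0, 8644 and 8302 in Ramsar and 8104, 8538, 6049.7 and 7199 in Sari. Rasht replicates 1, 3 and 4 were the highest of the 15 libraries, by a small margin over Lahijan, and replicate 2 was the lowest of all 16.

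For the remaining members among the first 10, no population lay apart from all 3 others. Ramsar_contig_4547 ranged from 5673 TPM in Ramsar replicate 3 to 13281 TPM in Lahijan replicate 1. Sari_contig_487 ranged from 3645 TPM in Rasht replicate 2 to 11550.2 TPM in Sari replicate 3. Rasht_contig_335 had 11185, 866, 9782 and 8301 TPM in Rasht, where replicate 2 was the lowest of all libraries, and between 4688 and 10690.4 TPM in the other populations. Over the 15 libraries, Rasht lay above Sari without overlap for Ramsar_contig_4547 and Lahijan above Ramsar for Rasht_contig_335, and all other pairs of populations overlapped for these 3 members.

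The members were short relative to other contigs. The ratio of estimated count to TPM gives a contig's effective length up to a constant, and it was set to 1 at the median of 8225 contigs with at least 20 counts in every library. On this scale the members had a median relative length of 0.38, with quartiles of 0.213 and 0.521, and a range from 0.0664 to 6.89. The median was 0.478 for the next 200 contigs by rank, 0.612 for the 600 contigs after those and 0.914 over all 11798 contigs with a value. The most abundant member, Ramsar_contig_97, had a relative length of 0.19. TPM divides by length, so ranking by library-scaled estimated counts instead kept only 128 of the 200 members.

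The identifier prefix of the members leaned toward Rasht. The prefix Rasht was carried by 122 members, or 61% of them, against 42.5% of all contigs. The prefix Lahi was carried by 17% of members against 20.2% of all contigs, Ramsar by 10.5% against 16.96%, and Sari by 11.5% against 20.4%. For most members the prefix did not name the population with the highest level. Of the 122 members named for Rasht, 38 had their highest mean there, with replicate 2 left out. The same held for 5 of the 34 named for Lahijan, 5 of the 21 for Ramsar and 7 of the 23 for Sari. Over all members the highest mean was in Rasht for 65, in Lahijan for 49, in Ramsar for 45 and in Sari for 41. Which role the populations played in naming the contigs is not given in the sources used here.

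Counts need not be whole where reads match several contigs and are shared between them. A fractional count in at least 1 library was found for 102 of the 200 members, or 51%, against 57.3% of all contigs, and the values of these members are uncertain to that extent. Of the members described below for a difference between populations, Rasht_contig_37, Rasht_contig_1261 and Rasht_contig_70 had whole counts in all libraries, and the other 7 had fractional counts in 5 to 16 of them. Some members followed each other closely over the 15 libraries. Of 19900 pairs of members, 7 had a Pearson correlation of log2 TPM of at least 0.97, while the median over all pairs was 0.01. The closest pair was Sari_contig_320 and Ramsar_contig_408, with a correlation of 0.996, neighbouring ranks 51 and 52, like relative lengths of 0.40 and 0.43, and fractional counts in 14 libraries each. Rasht_contig_21 and Ramsar_contig_12195 reached 0.979 with very different relative lengths, 3.25 and 0.08. These pairs were chosen after their values were seen, and whether their members come from the same gene was not tested.

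The list was largely shared by the populations. When the 200 most abundant contigs were taken from the mean TPM of each population, Rasht without replicate 2, 161 contigs were in all 4 lists, and all of them were members. The lists contained 187 members in Rasht, 182 in Lahijan, 186 in Ramsar and 184 in Sari. Among single libraries, 174 to 188 members were in the library's own first 200 in the 15 libraries, and 149 were in Rasht replicate 2. Of the members, 132 were among the first 200 of every one of the 15 libraries, and 196 were so in at least 8 of them.

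A median over all populations passes over contigs that are abundant in few of them. In all, 246 contigs were in the first 200 of at least 1 population, and 46 of these were not members. Of the 46, 32 were in the list of exactly 1 population, 3 in Rasht, 11 in Lahijan, 9 in Ramsar and 9 in Sari. The highest of them, named after their values were seen, were Lahi_contig_246, with a mean of 3805 TPM in Sari and 234 in Rasht, and Rasht_contig_737, with 2891 TPM in Rasht and 35.3 in Sari. Over the 15 libraries these contigs stood at ranks 292 and 321.

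Rasht replicate 2 stood apart from every other library in the members. Pearson correlations of the members' log2 TPM were 0.426 to 0.652 between this library and the other 15, and 0.616 to 0.652 with the other Rasht libraries. Without it, correlations were 0.860 to 0.968 within Rasht, 0.945 to 0.983 within Lahijan, 0.896 to 0.968 within Ramsar, 0.922 to 0.983 within Sari and 0.724 to 0.924 between populations. These are descriptions over 200 members that share libraries and depth. The library also had 5289 contigs without a count, against 1780 to 2787 in the others, although its total count was the highest.

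Relative to the mean of the other Rasht libraries, 36 members were at least 2-fold lower in replicate 2 and 29 at least 2-fold higher, which is 32.5% of the members. In the other Rasht libraries, compared in the same way among themselves, the share was 6% for replicate 1, 0% for replicate 3 and 2.5% for replicate 4. Split by relative length into 4 sets of 50 members, the second shortest set had a median log2 ratio of 0.51 in replicate 2, with 12 members at least 2-fold higher and 6 lower, and held 17.4% of TPM there against 10.8 to 11.3% in the other Rasht libraries. The shortest set had a median of -0.07, with 15 members at least 2-fold lower and 7 higher, and the remaining sets had medians of -0.02 and 0.04. Over the 200 members, log2 relative length and the log2 ratio in replicate 2 had a Pearson correlation of 0.014 and a rank correlation of -0.002. The part of length in the deviation was not tested. Rasht_contig_88 had 2037, 8.57, 1744 and 1306 TPM in Rasht replicates 1 to 4 and 1113 to 2659 TPM in the other populations, and it stood at rank 4641 in replicate 2. Rasht_contig_2039 had 2531, 77.3, 1737 and 1895 TPM in Rasht. In the opposite direction, Rasht_contig_1114 had 6084, 18396, 3593 and 2629.6 TPM and Ramsar_contig_747 had 1295, 6429.9, 1947 and 1642 TPM in Rasht, so that replicate 2 was by far the highest. Neither the label nor the protocol sets this library apart, and each test against Rasht is given with and without it.

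**Figure D2:**
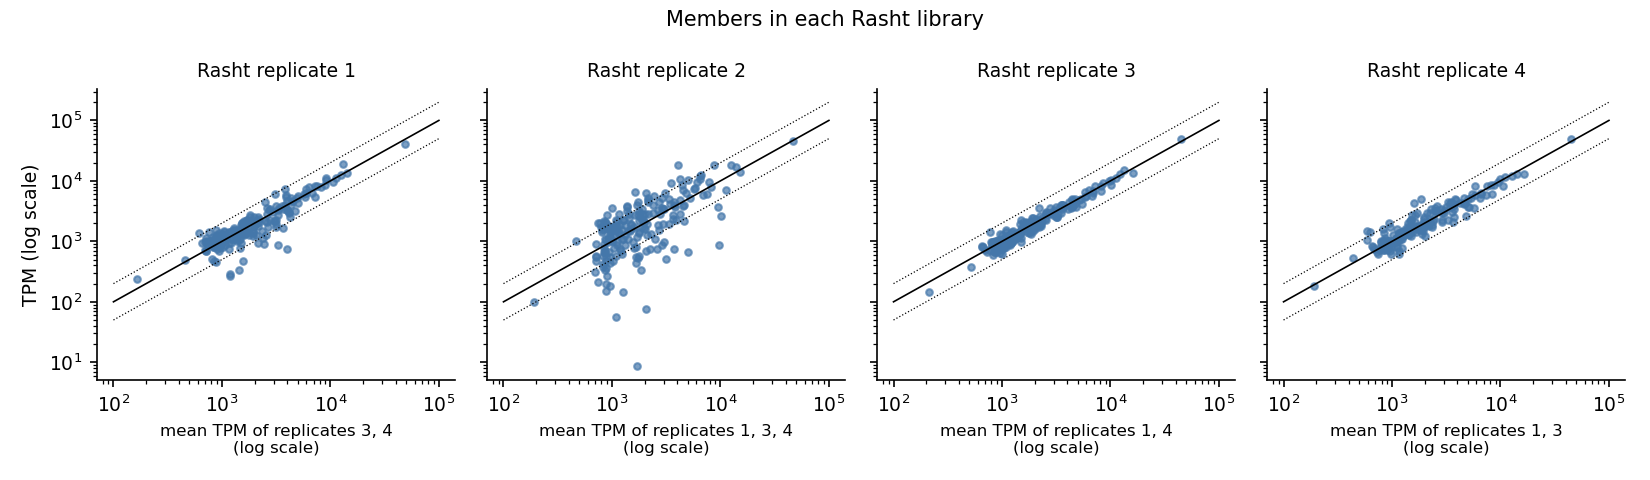
TPM of each of the 200 members in a Rasht library (vertical, log scale) against its mean in the other Rasht libraries without replicate 2 (horizontal, log scale), 1 panel per library, with dotted lines at 2-fold. In replicate 2, 65 members lie at or beyond the dotted lines (36 below and 29 above), against 12 in replicate 1, 0 in replicate 3 and 5 in replicate 4.

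Most members differed little between populations. With Rasht taken without replicate 2, the highest population mean was less than 1.5 times the lowest for 134 of the 200 members. The ratio was 1.5 to 2 for 43 members, 2 to 4 for 20 and 4 or more for 3. Its median was 1.32 over the members, 1.26 over the next 200 contigs and 1.27 over the 600 after those. Within the list it was 1.45 for ranks 1 to 50 and 1.29 for ranks 51 to 200. The highest mean was in Rasht for 65 members, in Lahijan for 49, in Ramsar for 45 and in Sari for 41, and the lowest was in Ramsar for 64, in Sari for 57, in Lahijan for 56 and in Rasht for 23.

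The members with the smallest ratio had nearly equal means. Rasht_contig_148 had 1728, 2936, 2456 and 2916 TPM in Rasht, 2072, 2329.6, 2568 and 2517 in Lahijan, 2175, 2219.8, 2345 and 2422 in Ramsar and 2387, 2177, 2544 and 2182 in Sari, a ratio of 1.04. Lahi_contig_1988 also had a ratio of 1.04, with 964 to 1458 TPM in the 15 libraries and 1889 in Rasht replicate 2. Sari_contig_410 had a ratio of 1.05, with 803 to 1037 TPM in the 15 libraries and 2724 in Rasht replicate 2. For all 3 the libraries of the 4 populations overlapped, and for the last of them Rasht replicate 2 was far above the rest.

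A population whose libraries all lay above or all below those of the 3 others was found for 25 members, in 27 cases over the 15 libraries. It lay above in 13 cases, 7 for Lahijan, 3 for Rasht, 3 for Sari and 0 for Ramsar. It lay below in 14 cases, 5 for Ramsar, 4 for Sari, 3 for Rasht and 2 for Lahijan. These cases made 6.5% of the members above and 7% below, against 5% and 8% of the next 200 contigs and 6% and 5.17% of the 600 after those. The other 175 members had no population apart.

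**Figure D3:**
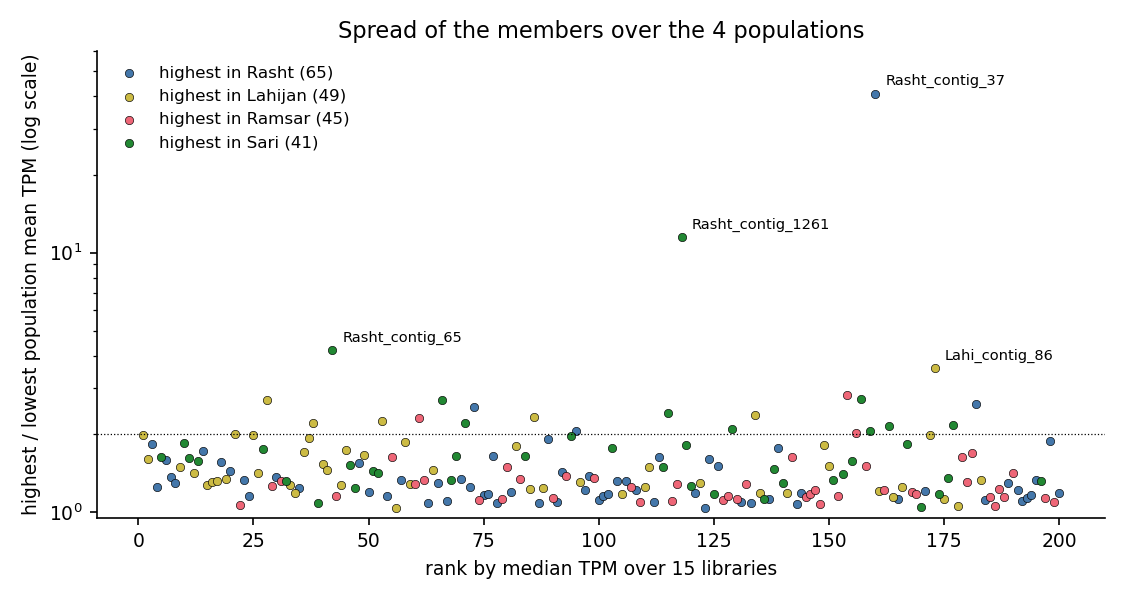
Ratio of the highest to the lowest population mean TPM (vertical, log scale, Rasht without replicate 2) against the member's rank by median TPM (horizontal), 1 point per member, coloured by the population with the highest mean. Of the 200 points, 134 lie below 1.5 and 3 lie at 4 or more, the highest at 41.0.

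Differences between populations were tested with edgeR's quasi-likelihood test on rounded estimated counts over 12174 contigs, all 200 members among them. A contig was called at a Benjamini-Hochberg adjusted p under 0.05 over all tested contigs where the log2 fold change was also 1 or more in either direction. In Lahijan against Rasht, 5 members were called, 2 higher and 3 lower, which is 2.5% of the members against 3.32% of all tested contigs (1.95% lower). In Ramsar against Rasht 41 members were called, 1 higher and 40 lower, or 20.5% against 4.04% of all tested contigs (1.75% lower). In Sari against Rasht 31 members were called, 1 higher and 30 lower, or 15.5% against 8.47% of all tested contigs (3.49% lower). These 3 comparisons share the Rasht libraries.

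The counts of Ramsar and of Sari against Rasht depended on single libraries. When Rasht replicate 2 was left out, the members called were 5 in Lahijan against Rasht, 4 higher and 1 lower (background 4.24%, lower 2.32%), 14 in Ramsar against Rasht, 1 higher and 13 lower (background 5.41%, lower 1.18%), and 7 in Sari against Rasht, 2 higher and 5 lower (background 8.59%, lower 2.2%). As shares of the members these were 2.5, 7 and 3.5%. Only 3, 13 and 5 members were called both with and without this library. Leaving out another Rasht library, replicate 1, 3 or 4, gave 75, 94 or 54 members in Ramsar against Rasht and 70, 79 or 66 in Sari against Rasht. Leaving out a Ramsar library, replicates 1 to 4, gave 22, 13, 18 or 13, and leaving out a Sari library gave 11, 13, 18 or 15. In Lahijan against Rasht the count was 9 without Rasht replicate 1 and 2, 3, 3 or 3 without Lahijan replicate 1, 2, 3 or 4. For these fits, other than the one without Rasht replicate 2, the share of all tested contigs called was not computed. A change in the members cannot be told there from a change in all contigs. The next 200 contigs by rank changed in the same way on leaving out Rasht replicate 2, from 4, 10 and 13.5% called to 4, 3.5 and 3.5%. Without Rasht replicate 2, 6.5% of members were called lower in Ramsar than in Rasht, against a background of 1.18% for that direction. In Sari 5 of the 200 members were called lower, against a background of 2.2%. The totals of both directions were 7% against 5.41% in Ramsar and 3.5% against 8.59% in Sari.

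Comparisons among the other populations did not use the Rasht mean, but the Rasht libraries entered through the filter, the TMM factors and the shared spread. In Ramsar against Lahijan 14 members were called, 1 higher and 13 lower, or 7% against 5.38% of all tested contigs (1.95% lower). In Sari against Lahijan 8 were called, all lower, or 4% against 5.19% in either direction and 1.36% lower, and Ramsar_contig_97, the most abundant contig, was one of them. In Ramsar against Sari 7 were called, 2 higher and 5 lower, or 3.5% against 1.67% (0.969% lower). Without Rasht replicate 2 the counts were 20 (18 of them lower; background 8.81%, lower 3.09%), 13 (12 lower; background 8.89%, lower 2.37%) and 11 (9 lower; background 3.11%, lower 1.92%). All 14, 8 and 7 members called with all libraries were called again. Other libraries moved these counts downward. The first was 9 without Ramsar replicate 4, and the second was 4 without Sari replicate 1, 2 or 4. The last was 4 without Ramsar replicate 1, Ramsar replicate 4 or Sari replicate 3. The background of these fits was not computed.

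A test of any difference among the 4 populations, at adjusted p under 0.05 in edgeR and with no fold threshold, called 56 members. This is 28% of them against 18.6% of all tested contigs. When Rasht replicate 2 was left out it called 105, or 52.5% against 40.2%. Leaving out Rasht replicate 1 or 3 gave 97 or 114 members. Leaving out any 1 library of Lahijan, Ramsar or Sari except Sari replicate 3 gave 33 to 37. The share of all tested contigs called in these fits was not computed. Among the next 200 contigs the shares with and without Rasht replicate 2 were 20.5 and 43%, and at ranks 1 to 50 they were 34 and 70%. Over the 6 comparisons 62 members were called at least once, 31% against 14.2% of all tested contigs, and 32 without Rasht replicate 2, 16% against 16.9%. The members called at least once in both ways numbered 28.

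The libraries of the populations compared did not overlap on TMM-scaled log2 counts for 12 members in Lahijan against Rasht (background 9.46%), 69 in Ramsar against Rasht (background 16.6%) and 55 in Sari against Rasht (background 24.6%). The numbers were 84 in Ramsar against Lahijan (background 27.6%), 85 in Sari against Lahijan (background 36.3%) and 33 in Ramsar against Sari (background 15.4%). These are 6, 34.5, 27.5, 42, 42.5 and 16.5% of the members. The comparisons with Rasht gave, with replicate 2 left out, 24 members for Lahijan (12%, background 16.2%), 82 for Ramsar (41%, background 26%) and 65 for Sari (32.5%, background 36.5%). With or without that library, the share was below the background in Lahijan against Rasht and above it in Ramsar against Rasht, while in Sari against Rasht it passed from above the background to below it.

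On TMM-scaled counts and without Rasht replicate 2, the members as a group lay slightly lower in the highly resistant populations. The median log2 fold change of the 200 members was -0.33 in Ramsar against Rasht, -0.25 in Sari against Rasht, -0.32 in Ramsar against Lahijan and -0.25 in Sari against Lahijan. It was -0.00 in Lahijan against Rasht and -0.05 in Ramsar against Sari. Over all tested contigs each of these medians was within 0.02 of 0, which TMM scaling brings about by centring most contigs there. The next 200 contigs by rank had -0.26, -0.23, -0.20 and -0.19 in the first 4 of these comparisons. The 600 contigs after those had -0.17, -0.18, -0.12 and -0.15. The lower level was thus shared, to a smaller extent, by the contigs ranked below the members. Of the 200 members, 25, 44, 34 and 42 had a log2 fold change above 0 in the first 4 of these comparisons, and 98 and 84 in the last 2. With all libraries the medians against Rasht were -0.44 for Lahijan, -0.89 for Ramsar and -0.78 for Sari.

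On the TPM scale, which has a fixed sum, the median of all tested contigs lay above 0 in the same 4 comparisons. The median log2 ratio of mean TPM was -0.10 over the members and 0.24 over all tested contigs in Ramsar against Rasht without replicate 2. It was -0.05 and 0.21 in Sari against Rasht, -0.05 and 0.31 in Ramsar against Lahijan, and -0.01 and 0.27 in Sari against Lahijan. In the same order of comparisons, 70, 81, 93 and 96 of the 200 members had a log2 TPM ratio above 0. Against Lahijan the members were thus near an even split on the TPM scale. On both scales the members' median lay below that of all tested contigs in these comparisons. A change of scale moves the members and all contigs by about the same amount. The TPM scale is therefore no separate check of this order. The TMM factor of Rasht replicate 2 was 0.529, and those of the remaining libraries were 0.933 to 1.18. The median TMM-scaled log2 count of the members, which includes these factors, was 11.19 in Rasht replicate 2 and 9.41 to 10.10 in the rest.

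**Figure D4:**
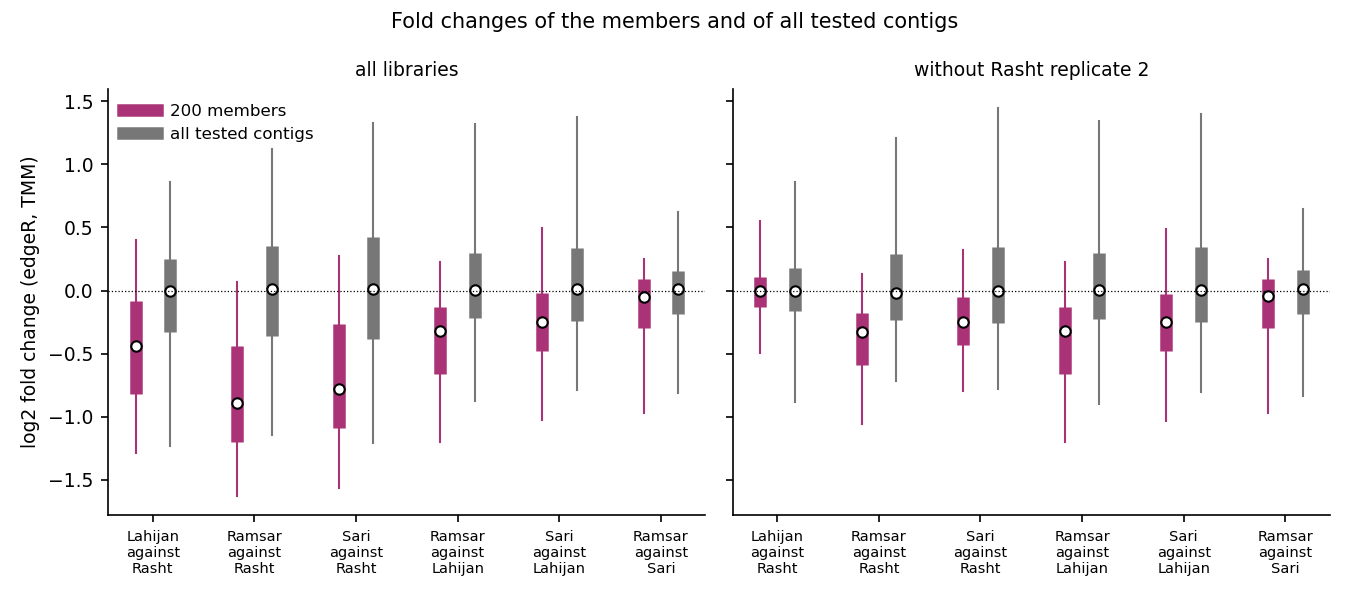
Log2 fold change (edgeR, TMM scaling) of the 200 members and of all tested contigs in the 6 comparisons, with all libraries on the left and without Rasht replicate 2 on the right. Dots are medians, thick bars quartiles and thin bars the 5th to 95th percentile. The members' median in Ramsar against Rasht moves from -0.89 to -0.33 between the panels. That of all tested contigs stays within 0.02 of 0, where TMM scaling places it.

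Among the members, 2 differed between populations far more than the rest and in opposite directions. Rasht_contig_37 had 5785, 7042, 4144 and 3656 TPM in Rasht and 5671, 3593, 3439 and 3828 in Ramsar. It had 691, 932, 339 and 672 TPM in Lahijan and 105, 215, 66.2 and 54.6 in Sari. Every library of Rasht and Ramsar was above every library of Lahijan, and every library of Lahijan was above every library of Sari. The means were 4528 ± 1115 in Rasht without replicate 2 (SD, n = 3), and 4133 ± 1038 in Ramsar, 658 ± 244 in Lahijan and 110.3 ± 73.4 in Sari (SD, n = 4), a ratio of 41.0 between the extremes.

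In edgeR, Rasht_contig_37 differed between Sari and Rasht by a log2 fold change of -6.26 ± 0.61 (SE, adjusted p = 2.4e-05), and -5.58 without Rasht replicate 2. It was lower in Lahijan than in Rasht by -3.41 ± 0.53 (SE, edgeR adjusted p = 0.0012), and -2.73 without that library. Ramsar was above Lahijan by 2.33 ± 0.51 (SE, edgeR adjusted p = 0.0092) and above Sari by 5.19 ± 0.58 (SE, edgeR adjusted p = 0.00013). Sari was below Lahijan by -2.85 ± 0.52 (SE, edgeR adjusted p = 0.0031). The difference between Ramsar and Rasht was not called, at -1.08 with all libraries and -0.40 without Rasht replicate 2. It is thus a contig on which the highly resistant populations Ramsar and Sari lay at opposite ends.

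Rasht_contig_1261 had 1607, 1310.5, 1962 and 1253 TPM in Lahijan and 1505, 2526, 2752 and 1929 in Sari. In Rasht it had 238, 100.0, 147 and 183 TPM and in Ramsar 127, 309, 136 and 205. All Lahijan and Sari libraries were above all Rasht and Ramsar libraries, and within each pair of populations the libraries overlapped. The highest and lowest population means, in Sari and in Rasht without replicate 2, differed 11.5-fold. In edgeR it was higher than in Rasht by 2.99 ± 0.32 in Lahijan (SE, adjusted p = 5.1e-05) and by 3.28 ± 0.32 in Sari (SE, adjusted p = 2.4e-05), log2 fold changes that were 3.05 and 3.33 without Rasht replicate 2. In Ramsar it was lower than in Lahijan by -3.26 ± 0.32 (SE, edgeR adjusted p = 1.8e-05) and lower than in Sari by -3.55 ± 0.32 (SE, edgeR adjusted p = 2e-05). The counts of this contig and of Rasht_contig_37 were whole in all 16 libraries.

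The third member with a ratio of 4 or more was Rasht_contig_65. It had 873, 1081, 2290.0 and 4260.0 TPM in Rasht, 2573, 3011, 5129 and 4661 in Lahijan, 794, 1479, 1194 and 1125 in Ramsar and 3349, 3559, 7594 and 4809.8 in Sari. Ramsar lay below Lahijan and Sari without overlap, while the Rasht libraries spread over both levels. Its log2 fold change in Ramsar against Sari was -2.13 ± 0.43 (SE, edgeR adjusted p = 0.015). The call was lost without Ramsar replicate 1 (adjusted p = 0.062), Ramsar replicate 4 (0.058) or Sari replicate 3 (0.058), and over all alternatives the adjusted p in edgeR or DESeq2 ranged from 2.4e-05 to 0.062.

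Several members were highest in Lahijan. Ramsar_contig_117 had 9468, 8832, 7727 and 7203 TPM in Lahijan, 3937, 2215, 3471 and 4205 in Rasht, 2781, 3207, 3254 and 3079.6 in Ramsar and 3353, 4059.7, 5026 and 3267 in Sari. All Lahijan libraries were above all others. Its log2 fold change in Lahijan against Rasht was 1.03 ± 0.20 (SE, edgeR adjusted p = 0.006), and 1.14 without Rasht replicate 2. It dropped under 1 without Rasht replicate 3 (0.94), Lahijan replicate 1 (0.95) or Lahijan replicate 2 (0.98). Lahi_contig_86 had 2388, 2132, 1498 and 1559 TPM in Lahijan, 784, 1693, 994 and 928 in Rasht, 716, 431, 526 and 440.1 in Ramsar and 982, 796, 787 and 865 in Sari. Ramsar was its lowest population and lay below Lahijan by -2.13 ± 0.43 (log2, SE, edgeR adjusted p = 0.0052). Rasht replicate 2 lay within the Lahijan range for this contig, above the other Rasht libraries.

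Members lowest in a single population included Rasht_contig_93 and Rasht_contig_239. Rasht_contig_93 had 479.8, 426, 279.8 and 410.5 TPM in Sari against 831, 995, 848 and 1128 in Ramsar, 1174, 766, 932 and 1016 in Rasht and 507, 845, 824 and 694 in Lahijan. All Sari libraries were below all others, and Ramsar was above Sari by 1.22 ± 0.22 (log2, SE, edgeR adjusted p = 0.0077). Rasht_contig_239 had 631, 852, 636 and 699.8 TPM in Lahijan, 1416, 1095, 1139 and 1259 in Rasht, 1177, 968, 1482 and 1446 in Ramsar and 1575, 1641, 1405 and 2161 in Sari. All Lahijan libraries were below all others. Its log2 fold change in Lahijan against Rasht was -1.07 ± 0.26 (SE, edgeR adjusted p = 0.026), but it was -0.80 and not called without Rasht replicate 2. The call was also lost without Lahijan replicate 1 (adjusted p = 0.087), 3 (0.091) or 4 (0.087), within a range of 0.00036 to 0.091 over the alternatives in edgeR or DESeq2.

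Compared with Lahijan, Rasht_contig_70 was lower in Ramsar and, except in a single pool, in Sari. Its TPM was 1477, 1466, 4152 and 1755 in Sari replicates 1 to 4 and 4469, 4095, 5037 and 5872 in Lahijan. It was 3156, 2784, 4398 and 5106 in Rasht and 2895, 2329, 2659 and 2496 in Ramsar. Sari replicates 1, 2 and 4 were the lowest of all 16 libraries. Sari replicate 3 lay among the Rasht and Lahijan libraries on this scale. In Ramsar against Lahijan the log2 fold change was -1.20 ± 0.33 (SE, edgeR adjusted p = 0.033). In Ramsar against Rasht it was -1.11 ± 0.33 (SE, edgeR adjusted p = 0.047), but -0.96 and not called without Rasht replicate 2. Ramsar against Sari was not called, at 0.16. The log2 fold change in Sari against Lahijan was -1.36 ± 0.33 (SE, edgeR adjusted p = 0.017). It was no longer called without Sari replicate 1 (adjusted p = 0.06), 2 (0.06) or 4 (0.062), within a range of 0.00032 to 0.062 over the alternatives in edgeR or DESeq2.

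The member with the largest fall in Ramsar against Rasht, Ramsar_contig_747, depended on Rasht replicate 2, and so did its fall in Sari. It had 1255, 856, 1121 and 839 TPM in Ramsar and 1179, 971, 953 and 1151 in Sari, against the 1295 to 6429.9 TPM in Rasht given above. Its log2 fold change was -2.44 ± 0.62 in Ramsar against Rasht (SE, edgeR adjusted p = 0.028) and -2.30 ± 0.62 in Sari against Rasht (SE, edgeR adjusted p = 0.021). Without Rasht replicate 2 these were -0.87 and -0.74, under the fold threshold. The calls were also lost without any 1 of the 4 Ramsar libraries (edgeR adjusted p of 0.061 to 0.081) or any 1 of the 4 Sari libraries (0.053 to 0.062). Over all alternatives the adjusted p in edgeR or DESeq2 ranged from 0.0072 to 0.084 for Ramsar and from 0.0089 to 0.076 for Sari.

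Ramsar_contig_34 had 8386, 18203, 9056 and 8585 TPM in Rasht, 6745, 7734, 6632 and 6487 in Lahijan, 6004, 4535, 4763 and 4813 in Ramsar and 6859.7, 5028, 5415 and 7282 in Sari. The Rasht libraries were all above the others, and replicate 2 was far above the rest of Rasht. Its log2 fold change in Ramsar against Rasht was -1.98 ± 0.44 (SE, edgeR adjusted p = 0.015). Without Rasht replicate 2 it was -1.03 with an adjusted p of 0.00023 in edgeR and remained called, and without Ramsar replicate 2 the adjusted p was 0.052. No member that rose met the naming rule in Ramsar against Rasht or in Sari against Lahijan.

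**Figure D5:**
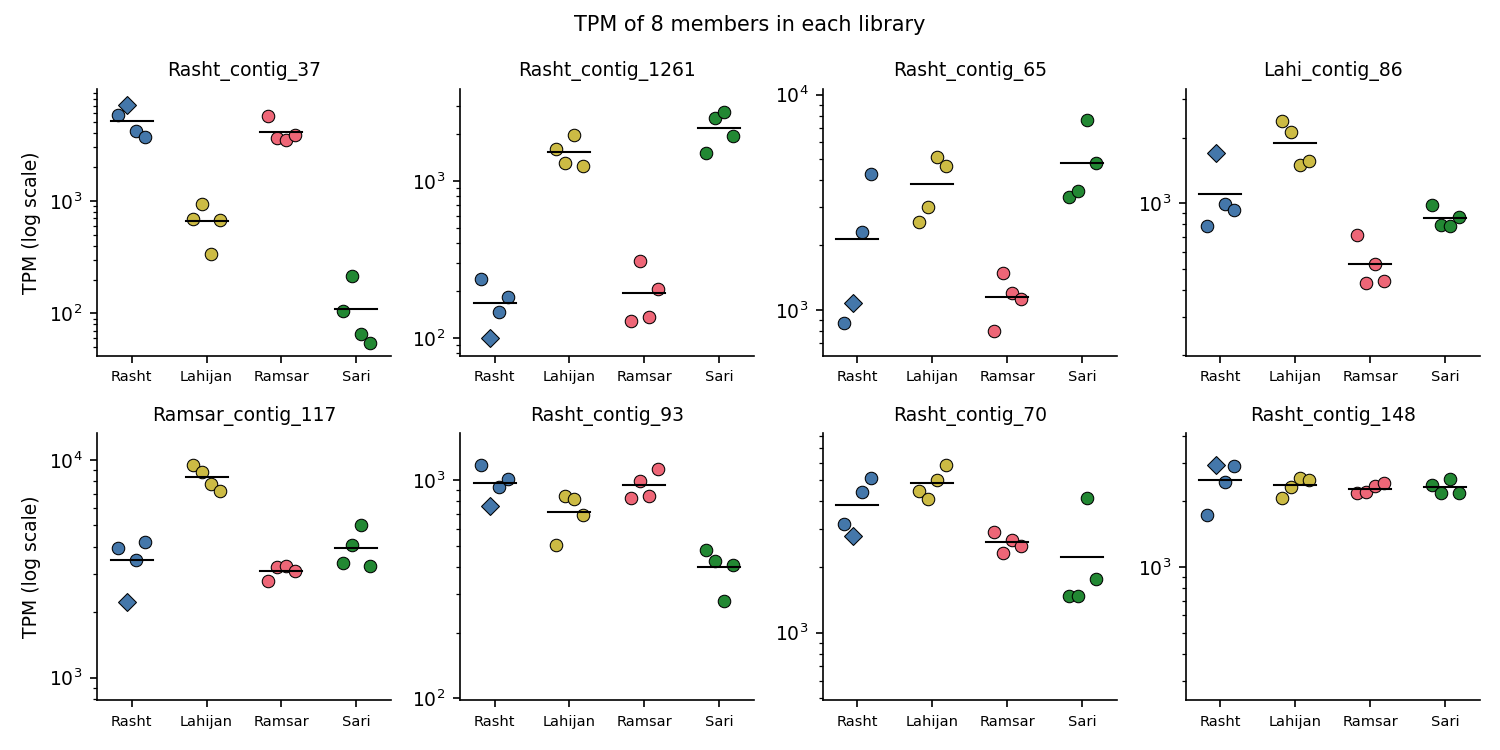
TPM (log scale) of 8 named members in the 16 libraries, grouped by population, with 1 point per library, a line at the mean of the 4 libraries and a diamond for Rasht replicate 2. Rasht_contig_37 is high in Rasht and Ramsar (3439 to 7042 TPM) and low in Sari (54.6 to 215 TPM), Rasht_contig_1261 is high in Lahijan and Sari (1253 to 2752 TPM), and Rasht_contig_148 is near the same level in all 4 populations.

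The spread between pools of a population was modest for most members. The median coefficient of variation of TPM was 11.9% in Lahijan, 13.8% in Ramsar and 11.6% in Sari (n = 4 libraries each). In Rasht it was 30.1% with all libraries and 14.8% without replicate 2 (n = 3). A coefficient of at most 20% was found for 153 members in Lahijan, 151 in Ramsar, 165 in Sari, and 63 in Rasht, or 141 there without replicate 2. Over the next 200 contigs the medians were 10.6% in Lahijan, 13.1% in Ramsar, 10.6% in Sari and 14.2% in Rasht without replicate 2, close to those of the members. Over the 15 libraries a median of 44.6% of a member's variance of log2 TPM lay between populations. It was 57.5% for ranks 1 to 50 and 38.8% for ranks 51 to 200. The median was 42.5% over the next 200 contigs and 44.7% over 598 of the 600 after those, close to that of the members. Such a share is above 0 even without a difference between populations, and it was not tested.

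Among Lahijan, Ramsar and Sari, the most variable members were Rasht_contig_37 in Sari, Rasht_contig_490 in Ramsar and Rasht_contig_70 in Sari. Their coefficients of variation there were 66.5, 61.2 and 58.7%. For Rasht_contig_490 the Ramsar libraries held 1228, 832, 421 and 293 TPM and the Rasht libraries 287, 468, 887 and 1468. Its values in Lahijan, 881, 774, 1041 and 885, and in Sari, 1362, 1291, 1113 and 1327, were closer together. The Ramsar and Rasht libraries of this contig together spanned the values of the other populations.

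Single pools often held the extremes. In Sari, replicate 3 was the lowest library for 97 of the 200 members and the highest for 76. In Lahijan, replicate 1 was the lowest for 96 and the highest for 31, and in Ramsar, replicate 1 was the lowest for 91 and the highest for 64. In Rasht, replicate 2 was the highest of 4 for 98 and the lowest for 68.

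Pools of different populations also varied along a shared direction. The first principal axis of the members' log2 TPM, centred within each population over the 15 libraries, held 36.7% of the variance. Its weights were 0.60 for Rasht replicate 1, -0.43 for Rasht replicate 4, -0.39 for Sari replicate 3, 0.29 for Lahijan replicate 2 and 0.22 for Ramsar replicate 4. At the end that was low in Rasht replicate 1 lay Rasht_contig_19, Ramsar_contig_575, Rasht_contig_404, Rasht_contig_490 and Rasht_contig_65. At the other end lay Rasht_contig_1114, Rasht_contig_468, Rasht_contig_140, Rasht_contig_2396 and Sari_contig_772. These 10 were named after their values were seen, and the axis has no test.

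Ramsar_contig_575 shows the low end, with 736, 884, 2932 and 4971 TPM in Rasht and 1291, 1074, 2677 and 1987 in Lahijan. It had 637, 1793, 1516 and 1026 TPM in Ramsar and 2533, 3302, 5234 and 2388 in Sari. Within each population its libraries differed by more than 2-fold between the lowest and the highest. At the high end, Rasht_contig_1114 had 2527, 5119.8, 2929 and 2346 TPM in Lahijan, 2483, 3844, 5963 and 4729 in Ramsar and 4314, 4082, 1937 and 4950.3 in Sari. In Sari, replicate 3 was the highest library for Ramsar_contig_575 and the lowest for Rasht_contig_1114. In Rasht replicate 2, which the axis did not use, all 5 contigs of the low end were below replicates 3 and 4. All 5 of the high end were above them. The axis set replicate 1 against replicates 3 and 4, so the choice of these contigs favoured this order. It is therefore no check of the axis.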

How the data were processed

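PolyA RNA of 16 pools of whole adult females, 4 per population, was sequenced with paired reads of 125 bases from stranded libraries, per the labels' protocols. The deposited table gives an estimated count and a TPM value for each of 17682 contigs in each library, and it had 0 columns of values without a sample. In the authors' table many estimated counts are fractional, as happens when reads are divided among contigs. The deposited TPM values are divided by contig length and scaled to an equal sum. Per the submitters' processing notes, the tools included R 3.4.4, limma 3.43.9 and edgeR 3.20.9, besides sleuth 0.29.0, kallisto and FastQC 0.11.4, without a role for any. How the contigs were made, and the settings used, are not stated in the labels. No genome sequence was used.

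Shares, levels and ranks were computed from the TPM as deposited, with no pseudocount or filter. For the tests, estimated counts were rounded and entered edgeR 4.0.16 (R 4.3.3), with the quasi-likelihood test in robust mode, TMM factors and filterByExpr. The filter left 12174 contigs, or 12300 without Rasht replicate 2, and removed so little that 99.9% of the counts or more remained in every library. The 6 comparisons and the test of any difference were contrasts of a single model of the 4 population means. The standard error (SE) of a log2 fold change is its size over the square root of F. The p-values rest on the spread between pools, which the labels call biological replicates. The test was run on simulated counts with known changes. These had the same spread for every contig and no outlying library, so they do not address the effect of Rasht replicate 2. A count was taken as whole where it lay within 0.001 of an integer.

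The named members were the 10 with the highest median TPM, those next to the threshold, and in each comparison the 2 largest rises and the 2 largest falls among called members whose libraries did not overlap on TMM-scaled log2 counts. To these were added the 3 most variable within Lahijan, Ramsar or Sari, the 3 with the smallest ratio between population means, and the 2 highest and 2 lowest in Rasht replicate 2 relative to the other Rasht libraries. Others are marked as named after their values were seen. The members, the rules and the tests were chosen with earlier results of these data known. The alternatives were other size factors, scaling without the members, no filter, DESeq2 1.42.0, the adjusted p alone, the replicate number as a block, other rankings of the members, and each library left out in turn.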

Additional observations from a re-analysis of the deposited data

Results flagged for a closer look

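In groups of 4 libraries, a value was picked out when its gap to the nearest other library, as a share of the group's range, was above Dixon's critical value for that group size. The TPM share of the members and the TPM of 29 named members were examined in this way in 120 groups of libraries, and 14 values were picked out. Chance picks out about 1 in 20 groups, but that rate does not hold for members named because of Rasht replicate 2, such as Ramsar_contig_747, or because of their spread within a population, such as Rasht_contig_70. Of the 14 values, 8 were in Rasht replicate 2 and 6 in other libraries.

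In Rasht replicate 2 the members held 61.3% of TPM, against 52.9 to 54.1% in the other Rasht libraries. In this library Rasht_contig_31 had 18520.3 TPM (12062 to 13016 in the other Rasht libraries), Rasht_contig_3717 had 2183 (787 to 875), Ramsar_contig_747 had 6429.9 (1295 to 1947), Ramsar_contig_34 had 18203 (8386 to 9056) and Sari_contig_410 had 2724 (842 to 995). Ramsar_contig_4547 was low there, with 7020.2 TPM (11046 to 11571 in the others), and so was Rasht_contig_902, with 2585 TPM (9631 to 10754).

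Outside Rasht, Sari_contig_43 was high in Lahijan replicate 2, with 15659 TPM (12197 to 12632 in the other Lahijan libraries), and in Ramsar replicate 1, with 9162 TPM (6957 to 7245 in the other Ramsar libraries). Sari_contig_487 had 9039 TPM in Lahijan replicate 1 (6662 to 6906 in the others). Rasht_contig_88 had 1881 TPM in Ramsar replicate 4 (1113 to 1233 in the others). In Sari replicate 3, Rasht_contig_31 had 8274 TPM (12322 to 12963 in the other Sari libraries) and Rasht_contig_70 had 4152 TPM (1466 to 1755).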

How the results depend on the processing

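Of 188 alternative values of the counts and shares, 132 stayed within 1.5 times the reported count or within 1 SD of the reported share. DESeq2 called more members in Lahijan against Rasht (10), Ramsar against Rasht (71), Sari against Rasht (51) and for any difference (120), with 16 members left without an adjusted p. The adjusted p alone gave 49 members in Sari against Rasht. Apart from the fit without Rasht replicate 2, the share of all tested contigs called is not given for the alternatives. Their counts therefore cannot be read against a background. Other size factors, scaling without the members, no filter and members ranked over 16 libraries kept every count within 1.5 times. When members were ranked by library-scaled counts, their share of counts was 44.7% in Rasht, 42.7% in Lahijan, 36.7% in Ramsar and 40.04% in Sari.

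With each library left out in turn, the members called ranged from 2 to 9 in Lahijan against Rasht, 13 to 94 in Ramsar against Rasht, 7 to 79 in Sari against Rasht, 9 to 20 in Ramsar against Lahijan, 4 to 13 in Sari against Lahijan, 4 to 11 in Ramsar against Sari, and 33 to 114 for any difference. The mean TPM share ranged from 53.4 to 56.2% for Rasht and from 54.6 to 56.1% for Lahijan, and for Ramsar from 47.98 to 49.03% and Sari from 48.8 to 49.7%. Of 375 alternative values of the 18 named fold changes, 348 were still called, 27 were not and 0 reversed; 11 of the 18 were called under every alternative.

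No pairing of the libraries by replicate number was seen. Deviations from the population means, Rasht replicate 2 included, were correlated over all 12174 tested contigs. Over 24 pairs with the same number the correlation ranged from -0.25 to 0.18 and was over 0.1 in 3. Over 72 pairs with other numbers it ranged from -0.22 to 0.29 and was over 0.1 in 11. Of 16 libraries, 2 correlated best with their own number. Rasht replicate 2 weighs on the Rasht deviations, so a pairing that involves Rasht could be hidden. With the replicate block the members called were 3 in Lahijan against Rasht, 26 in Ramsar against Rasht, 13 in Sari against Rasht and 35 for any difference, and the other counts stayed within 1.5 times. Named fold changes no longer called with the block were Rasht_contig_239 in Lahijan against Rasht (edgeR adjusted p = 0.055) and Ramsar_contig_747 in Ramsar and in Sari against Rasht (0.084 and 0.076).

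The members carry at least 168 counts in every library, so depth limits little. The precision rests on 4 pools per population, on reads shared between contigs, and on Rasht replicate 2, whose difference from the other Rasht libraries has no label. The cause of these changes was not tested.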

Other observations

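Deviations of the members' log2 TPM from their population means were compared between libraries of different populations, as a description over 200 members without a test. The correlation was 0.53 between Rasht replicate 4 and Sari replicate 3, and also 0.53 between Rasht replicate 4 and Lahijan replicate 3 and between Rasht replicate 4 and Ramsar replicate 2. It was -0.56 between Lahijan replicate 2 and Sari replicate 3, -0.49 between Rasht replicate 1 and Sari replicate 3, and -0.49 between Rasht replicate 4 and Ramsar replicate 4. These pairs were chosen after their values were seen and share no label beyond the stage, sex and rearing common to all libraries.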
